A study of Mus musculus with 4 samples.

Results

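A group of 9 genes of mineralization and bone biology was followed across all arrays: Mgp, Tnfrsf11b, Spp1, Runx2, Alpl, Bglap, Ibsp, Enpp1 and Ank. Every gene probe whose RefSeq accession maps to 1 of these 9 mouse symbols was taken, which gave 11 probes for 8 genes, out of 55681 probes and 36838 gene names on the array. No probe mapped to Bglap. The genes were selected on earlier results of these data, namely the differences of the CA39 array from the untreated one, so the values of that comparison, and of CA39 against the other compounds, describe the genes and support nothing beyond that.

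The cells were NIH-3T3, an established mouse fibroblast line, grown to confluency in medium with serum. Total RNA was hybridized to one-colour Agilent arrays, with 1 array of an untreated culture and 1 each of cultures given AR7, CA39 or CA77 at 20 µM for 24 h. The compounds were developed as activators of chaperone-mediated autophagy, the route by which single cytosolic proteins are carried into lysosomes, and act on retinoic acid receptor alpha. They were added in DMSO, whereas the control label states no treatment, so the vehicle and the compounds cannot be told apart in any difference that the 3 treated cultures share.

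With 1 culture and 1 array per group there was no replicate, no test was possible and no p-value is given. All arrays lay on 1 slide, with the untreated array in row 1 and the treated arrays in row 2, so row and treatment cannot be told apart. CA77 was read in scan 2 and the others in scan 1. Detection varied among arrays: the untreated array had 38621 probes well above background, the AR7 array 29286, the CA39 array 28929 and the CA77 array 34088. Every level below is a normalized spot intensity on the log2 scale, and every difference is a log2 difference between 2 arrays. The error given with a difference comes from the error model of the scanner software and covers a spot, not a culture. A further measure of error within an array, the spread among spots of probes printed at least 10 times, gave a tolerance of 0.16 for a difference.

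Mineral forms in bone where phosphate is released, pyrophosphate is removed and the collagen matrix permits it, and soft tissues hold it back with secreted inhibitors. Matrix Gla protein, encoded by Mgp, is such an inhibitor and depends on vitamin K for gamma-carboxylation. Osteoprotegerin, encoded by Tnfrsf11b, is a soluble decoy receptor that binds RANKL and so limits osteoclast formation. Runx2 is the transcription factor that commits cells to the osteoblast lineage, and Spp1 (osteopontin), Ibsp (bone sialoprotein) and Bglap (osteocalcin) are secreted matrix proteins of bone. Alpl splits pyrophosphate, Enpp1 makes it from ATP, and Ank takes part in its release from the cell.

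Among the genes with an entry in the promoter table, sequences are shown for Spp1, which encodes a matrix protein and was detected on all arrays, and for Runx2, since RUNX factors bind in promoters of bone matrix genes. Both are the 250 bases before the transcription start in the RefSeq promoter table of assembly GRCm38.p6, written 5′ to 3′ on the strand of the gene. Capitals mark letters that equal a searched motif on either strand: the RUNX core TGTGGT (read as ACCACA on the other strand), the nuclear receptor motif AGGTCA, and the TATA box TATAAA. The Spp1 stretch is the first of 2 that the table gives for this gene and lies at chr5:104434861-104435110 on the plus strand and the Runx2 stretch at chr17:44814628-44814877 on the minus strand.
Spp1: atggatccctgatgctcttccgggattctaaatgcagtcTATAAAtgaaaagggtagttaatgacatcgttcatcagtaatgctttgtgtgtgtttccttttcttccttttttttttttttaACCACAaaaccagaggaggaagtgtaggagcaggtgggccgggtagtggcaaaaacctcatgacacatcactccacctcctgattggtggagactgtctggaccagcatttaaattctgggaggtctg
Runx2: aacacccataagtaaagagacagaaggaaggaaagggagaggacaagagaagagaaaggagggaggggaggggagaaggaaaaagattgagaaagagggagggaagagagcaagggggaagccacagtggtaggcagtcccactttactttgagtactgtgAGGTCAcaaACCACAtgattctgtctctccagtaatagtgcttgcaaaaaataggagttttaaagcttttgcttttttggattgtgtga
The Spp1 stretch held a RUNX core on the other strand starting at position -128 from the transcription start, and TATAAA at -211. The Runx2 stretch held a RUNX core on the other strand at position -80, with AGGTCA at -89 on the strand of the gene. In the 50 bases after the start, not shown, Runx2 held RUNX cores at positions 24 and 32 as well. Among all 32851 promoters of the table, taken over 300 bases (250 before the start and 50 after), the RUNX core occurred in 16.8%, AGGTCA in 16.3% and TATAAA in 13.6%. An AP-1 site (TGANTCA, in 7.81% of promoters) and a tandem pair of AGGTCA spaced by 5 bases (in 0.00913%) were searched too and were in neither promoter. The second Spp1 promoter of the table held no match of any motif. A RUNX core was also found for Bglap and Enpp1 and in no promoter of Alpl, Ibsp or Ank. These are matches of letters and not measured binding.

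Of the 8 genes with a probe, 5 were well above background on at least 1 array: Mgp, Tnfrsf11b, Spp1, Runx2 and Ank. The brightest probe of 4 of them was detected on all 4 arrays, and that of Tnfrsf11b on all but AR7. Alpl and both probes of Ibsp were at background on all arrays, and Enpp1 on the 3 arrays where its spot was used.

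**Figure D1:**
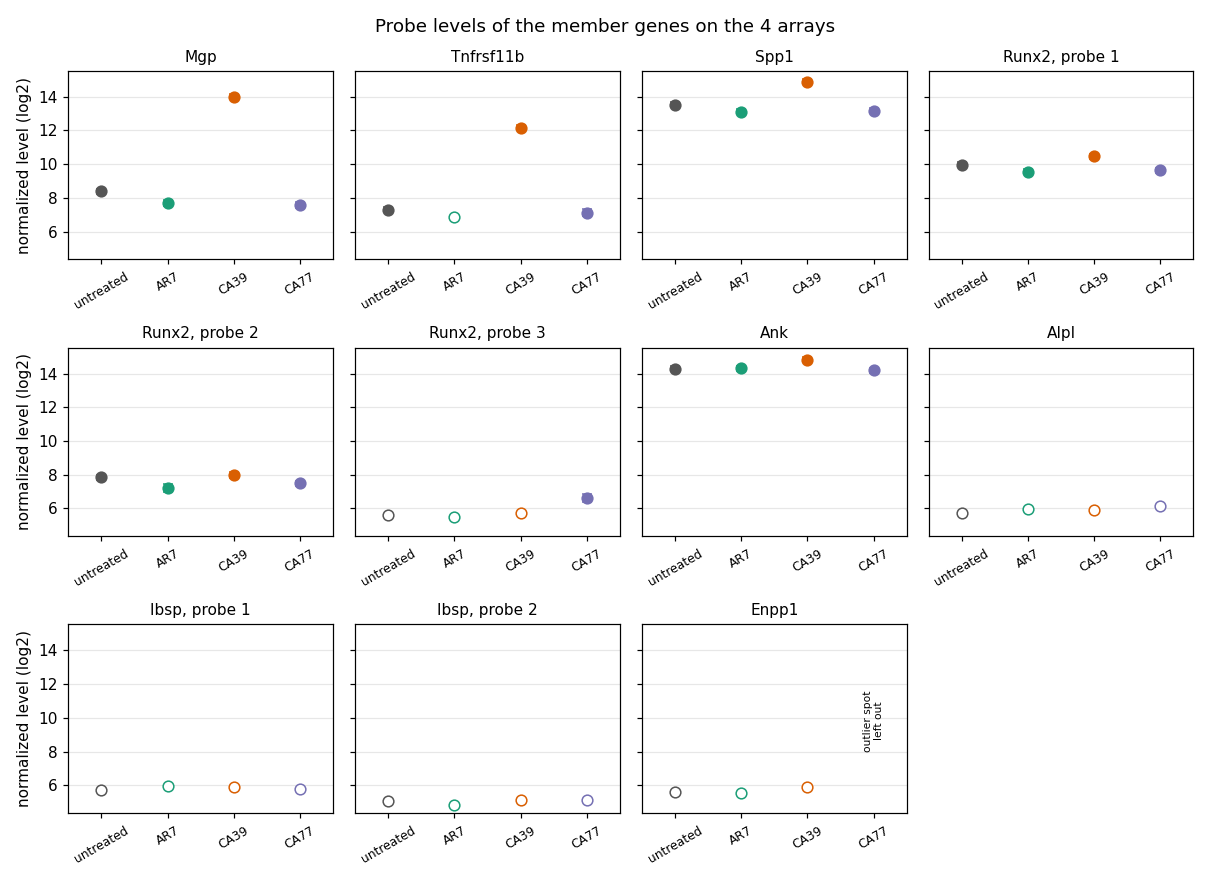
Normalized log2 level (vertical axis) of each of the 11 probes on the untreated, AR7, CA39 and CA77 arrays. Filled points are well above background, open points are not, and bars on filled points, mostly smaller than the point, are the scanner software's error. Mgp and Tnfrsf11b stand far higher on CA39 than on the other arrays, Spp1 is moderately higher there, and Alpl, Ibsp and Enpp1 have only open points, with the Enpp1 spot on CA77 left out as an outlier.

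Mgp, the inhibitor of mineralization, differed most. Its level was 8.39 in untreated cells, 7.69 under AR7, 14.01 under CA39 and 7.57 under CA77. The scanner signals of these spots, as processed by the scanner software, were 279, 161, 16132 and 122, respectively. The levels were computed from median spot intensities and not from these signals. The CA39 array was the single high one, and the AR7 and CA77 arrays lay under the untreated one.

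The Mgp difference of CA39 from untreated was 5.62 (error 0.21), a ratio of 49.1. AR7 lay 0.70 under the untreated array (difference -0.70, error 0.24) and CA77 0.82 under it (difference -0.82, error 0.22). Both exceed their errors and neither passed 2-fold, and the CA77 difference passed it under another scaling between arrays (-1.06 with each array scaled to its 75th percentile). In RNA of a whole culture, more transcript per cell and more cells that carry it cannot be told apart.

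Tnfrsf11b, the RANKL decoy receptor, had the next largest difference of the 5 genes. Its level was 7.29 on untreated, 12.15 on CA39 and 7.13 on CA77, and 6.89 on AR7, where the spot was not well above background. The scanner signals were 115 in untreated cells, 74.1 under AR7, 4472 under CA39 and 79.3 under CA77. Again CA39 stood alone, and the other arrays were near the lower end of detection.

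CA39 exceeded untreated by 4.86 (error 0.21) for Tnfrsf11b, a ratio of 29.0. CA77 differed from untreated by -0.16, less than its error of 0.25. The AR7 spot entered at its own reading, and its difference from untreated, treated as a bound, was -0.40 (error 0.36). It ranged from -0.59 to -0.29 over the processing alternatives.

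Spp1, the secreted phosphoprotein osteopontin, was detected with a strong signal throughout. Its levels were 13.54 in untreated cells, 13.11 under AR7, 14.89 under CA39 and 13.17 under CA77. The difference from untreated was 1.35 for CA39, -0.43 for AR7 and -0.37 for CA77, each with an error of 0.20. As with Mgp, the order placed CA39 above untreated and untreated above the other compounds, and AR7 and CA77 did not differ beyond their error (0.05, error 0.20).

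Of the other bone matrix genes, Ibsp was at background, and copies of the osteocalcin gene were detected. Ibsp, which encodes bone sialoprotein, had levels of 5.72, 5.98, 5.87 and 5.75 for its first probe on untreated, AR7, CA39 and CA77, and between 4.86 and 5.15 for its second. All of these are background. For osteocalcin, only probes of the neighbouring copies Bglap2 and Bglap3 were present, and whether they tell the copies apart was not tested.

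Bglap2 had levels of 7.87 in untreated cells, 7.65 under AR7, 8.28 under CA39 and 7.25 under CA77. The brightest Bglap3 probe read 8.48, 7.92, 9.04 and 7.82 on the same arrays. Their differences from untreated with CA39 were 0.41 and 0.55, under 2-fold, and against CA77 the CA39 array was 2.04-fold higher for Bglap2 and 2.33-fold higher for Bglap3. Against AR7 it was 1.55-fold higher for Bglap2 and 2.16-fold higher for Bglap3. The second Bglap3 probe gave a CA39 difference from untreated of 0.70, and CA39 was 2.41-fold above AR7 and 3.11-fold above CA77. The spots around the brightest Bglap3 probe had a median difference of 0.45 with CA39 against untreated and 0.49 against CA77, and their part in its differences was not tested. The dimmest of 3 Bglap3 probes, at 5.88 on untreated and 7.16 on CA39, passed 2-fold (1.28, error 0.39), so the probes of that gene disagree on the call.

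Runx2 had 3 probes. The brightest read 9.96 in untreated cells, 9.54 under AR7, 10.48 under CA39 and 9.65 under CA77, and the next 7.84, 7.21, 8.005 and 7.48. Both probes thus had the order CA39, untreated, CA77, AR7. The difference of CA39 from untreated was 0.52 (error 0.20) for the brightest and 0.17 (error 0.23) for the next, which is within its error.

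AR7 lay under untreated by -0.43 (error 0.21) and -0.62 (error 0.28) for these Runx2 probes, and CA77 by -0.31 (error 0.20) and -0.36 (error 0.22). The third probe was well above background on CA77 alone, at 6.62, and read 5.59, 5.48 and 5.75 on untreated, AR7 and CA39. It differs from the others in direction for CA77, since it gives a CA77 level at least 1.67-fold above untreated. No Runx2 probe passed 2-fold against untreated, which for the third probe with CA77 rests on that bound. With its untreated reading of 5.59 taken as it was, the CA77 difference was 1.03 (error 0.56).

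Ank, the pyrophosphate export protein, was at 14.29 in untreated cells, 14.31 under AR7, 14.83 under CA39 and 14.20 under CA77. CA39 was higher than untreated by 0.54 (error 0.20), a ratio of 1.46. AR7 (0.02) and CA77 (-0.08) differed from untreated by less than the error of 0.20.

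Alpl and Enpp1, which remove and make pyrophosphate outside the cell, gave no level above background in the spots used. Alpl, tissue-nonspecific alkaline phosphatase, read 5.76 in untreated cells, 5.96 under AR7, 5.89 under CA39 and 6.13 under CA77, none well above background. Enpp1 read 5.63, 5.55 and 5.90 on untreated, AR7 and CA39, also at background, and its single spot on CA77 was marked as an outlier and left out.

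**Figure D2:**
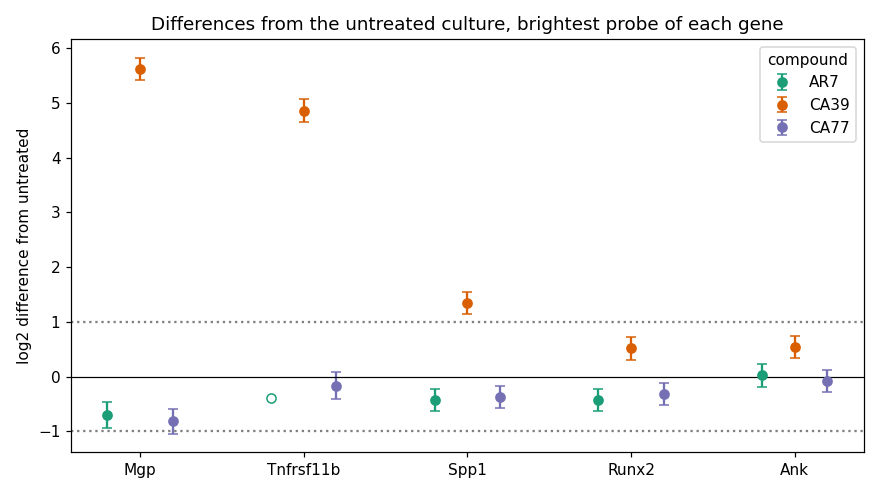
Log2 difference from untreated (vertical axis) of the brightest probe of the 5 detected genes with AR7, CA39 and CA77. Filled points are measured on both arrays with bars for the scanner software's error, the open point is a bound because Tnfrsf11b was not well above background on AR7, and dotted lines mark 2-fold. The CA39 points of Mgp (5.62), Tnfrsf11b (4.86) and Spp1 (1.35) lie above the upper line, and no point lies under the lower one.

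Counted over these 5 genes, Mgp, Tnfrsf11b and Spp1 (3 of 5) were over 2-fold higher with CA39 than untreated, beside 3.69% of 27894 gene names. The comparison is the one that chose the genes. With AR7, 0 of 5 were over 2-fold higher (1.8% of 27855 gene names) and 0 lower (0.388%). With CA77, 0 of 5 were over 2-fold higher (1.93% of 28126) and 0 lower (0.548%). The median difference of the 5 genes was 1.35 with CA39, -0.43 with AR7 and -0.31 with CA77, against 0.00, 0.00 and -0.01 over all gene names tested.

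**Figure D3:**
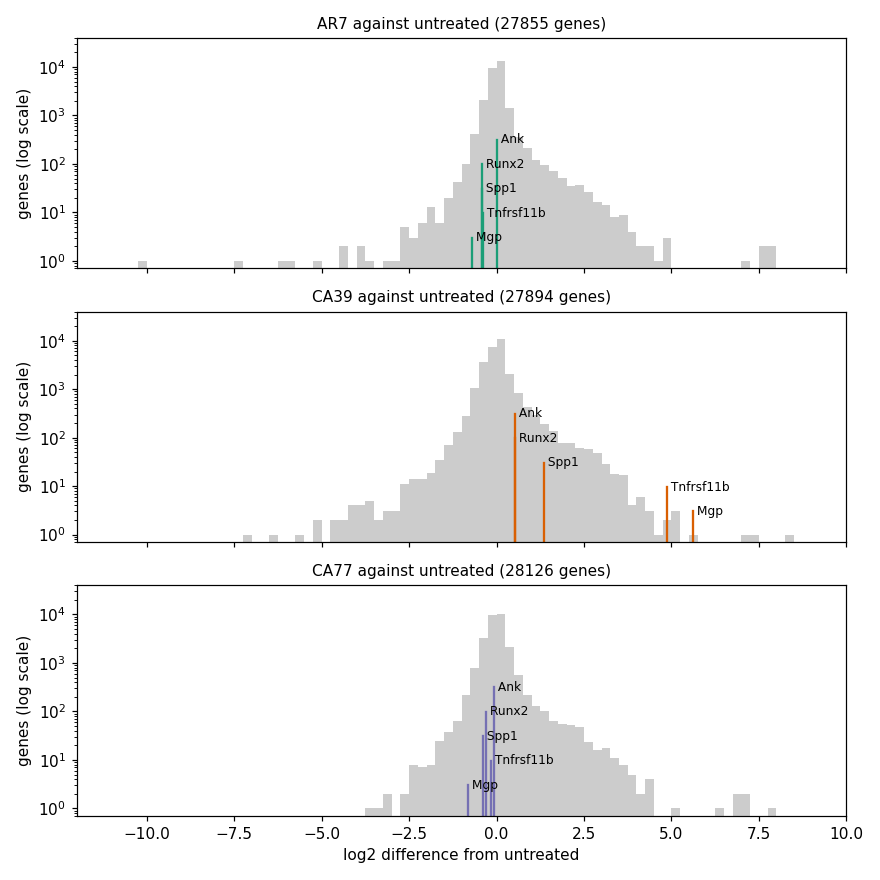
Distribution over all gene names tested of the log2 difference from untreated (horizontal axis) for AR7, CA39 and CA77, with the number of genes on a log scale. Coloured lines mark the 5 detected genes, and their heights only separate the labels. With CA39, Mgp and Tnfrsf11b lie in the far upper tail at 5.62 and 4.86, while with AR7 and CA77 all 5 genes lie between -0.82 and 0.02.

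By rank from the highest of 27894 differences with CA39, Mgp was number 4, Tnfrsf11b number 9, Spp1 number 653, Ank number 2111 and Runx2 number 2219. From the lowest, Mgp was number 243 of 27855 with AR7 and number 293 of 28126 with CA77. The spots around each probe, within 2 rows and 2 columns on the array, were read beside it. For the probes of the 5 detected genes, their median difference lay between -0.23 and 0.29 in all 6 comparisons. With CA39 against untreated it was -0.12 around Mgp, -0.02 around Tnfrsf11b and 0.26 around Spp1. Around the brightest Runx2 probe it was -0.20 with AR7, beside -0.43 for the probe itself, and around the next probe it was -0.23 with AR7 and -0.20 with CA77, beside -0.62 and -0.36. For CA77 against AR7 the spots around the brightest Runx2 probe (0.21) exceeded the probe (0.11). The part of the position on the array in the Runx2 differences was not tested.

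The compounds were compared with each other at the same dose and time, in 3 pairs for each of the 5 genes. Against AR7, CA39 was 79.8-fold higher for Mgp (6.32, error 0.24) and 3.42-fold higher for Spp1 (1.78, error 0.20). For Tnfrsf11b it was 38.3-fold higher (5.26, error 0.36), treated as a bound, with a range of 4.77 to 5.83 over the processing alternatives. For Runx2 (0.94) and Ank (0.52) the CA39 array was also higher, without passing 2-fold. Thus 3 of 5 genes were over 2-fold higher, beside 3.72% of 23075 gene names.

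CA39 against CA77 gave the same order. The difference was 6.44 (error 0.22, 86.7-fold) for Mgp, 5.02 (error 0.24, 32.5-fold) for Tnfrsf11b, 1.72 (3.30-fold) for Spp1, 0.83 for Runx2 and 0.63 for Ank. With the mean over its probes, Runx2 differed by 0.16 in this comparison. Here too 3 of 5 were over 2-fold higher, beside 3.98% of 25457 gene names. Both comparisons use the same CA39 array and are not separate evidence.

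The brightest probes were then compared between AR7 and CA77. CA77 minus AR7 was -0.12 (error 0.26) for Mgp, 0.05 (error 0.20) for Spp1, 0.11 (error 0.21) for Runx2 and -0.11 (error 0.20) for Ank, each within its error. With the mean over its probes, Runx2 differed by 0.50, and no error was computed for that mean. The third probe in it was not well above background on AR7. For Tnfrsf11b the difference was 0.23, treated as a bound and less than its error of 0.38. No gene of the 5 passed 2-fold in either direction, beside 2.57% of 25344 gene names. A single array of each does not show that the compounds act alike.

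Gene lists around these genes were examined next. They were chosen with earlier results of these data known, so their counts describe the genes and support nothing beyond that. The counts are read against the share of all gene names past 2-fold from untreated in either direction. That share was 2.19% under AR7, 4.85% under CA39 and 2.47% under CA77. Among regulators of osteoblast identity, a list of 16 genes, 0 of 15 compared passed 2-fold against untreated with any compound, a count near those shares, and the median difference was -0.02 under AR7, -0.15 under CA39 and -0.09 under CA77. Sp7 (osterix), the factor that acts after Runx2, read 7.72 in untreated cells, 7.64 under AR7, 7.50 under CA39 and 7.36 under CA77. Cbfb, the partner of RUNX proteins, differed from untreated by 0.05, 0.32 and 0.06. Nearest to 2-fold with CA39 were Sox9, the chondrocyte factor, at 0.99 and Twist2, a repressor of osteoblast differentiation, at -0.96. These last 2 genes were picked out after their values were seen.

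Secreted matrix genes of bone had a wider spread. With CA39, 5 of 14 were over 2-fold higher and 1 lower (beside 3.69% and 1.16% of all gene names), with a median of 0.48. Postn (periostin, a matrix protein of periosteum and ligament) was not well above background on the untreated, AR7 and CA77 arrays and read 14.18 on CA39, at least 317-fold above untreated. It was therefore compared through the CA39 array alone, and the share over all gene names counts such genes too. Bgn (biglycan, a small proteoglycan) read 11.92 in untreated cells, 11.06 under AR7, 14.23 under CA39 and 11.12 under CA77.

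Ogn (osteoglycin, a related proteoglycan) read 9.68, 8.73, 11.89 and 8.85 on the same arrays. The CA39 differences were 2.31 for Bgn and 2.21 for Ogn, each with an error of 0.20. Phex, an endopeptidase of osteoblasts and osteocytes, was higher by 1.20 (error 0.21), and Col1a1, the main chain of type I collagen, by 1.06 (error 0.20). Smoc2, a matrix-associated calcium-binding protein, was lower, at 11.04 on untreated and 9.15 on CA39 (-1.89, error 0.21). Sparc (osteonectin), a collagen-binding protein of mineralized matrix, read 17.82, 17.45, 17.93 and 17.38.

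With AR7, 0 of 14 matrix genes were over 2-fold higher (beside 1.8% of all gene names) and 1 lower (beside 0.388%), Col1a1 at -1.04 (error 0.20). With CA77, 0 were higher (beside 1.93%) and 1 lower (beside 0.548%), Omd (osteomodulin) at -1.18 (error 0.33). The medians were -0.37 and -0.44. Bgn, at -0.85 with AR7 and -0.79 with CA77, and Ogn, at -0.94 and -0.82, stayed under 2-fold. For Mgp, Spp1, Bgn, Ogn and Col1a1 the untreated array therefore lay between CA39 and the other compounds. These genes were picked out after their values were seen, and the order did not hold for all matrix genes. Smoc2 read 11.20 on AR7, 11.04 on untreated, 10.75 on CA77 and 9.15 on CA39. Against AR7, 7 of 14 matrix genes were over 2-fold higher with CA39 (median 0.89), beside 3.72% of all gene names, and against CA77, 8 of 14 were (median 1.12), beside 3.98%. In each of these comparisons 1 of 14 was over 2-fold lower, Smoc2 at -2.05 against AR7 (beside 2.43% of all gene names) and -1.60 against CA77 (beside 2.24%).

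**Figure D4:**
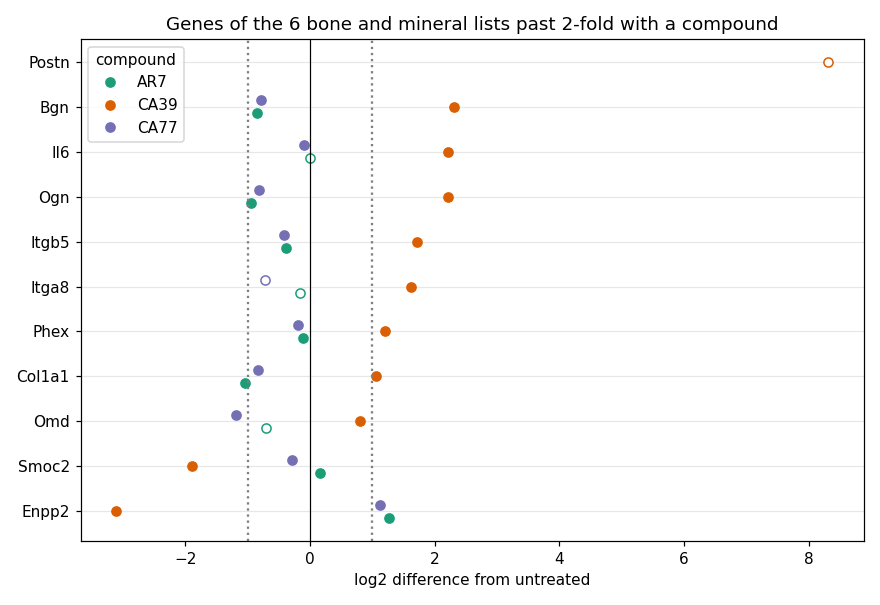
Log2 difference from untreated (horizontal axis) of each gene of the 6 gene lists that passed 2-fold with at least 1 compound. Filled points are measured, open points are bounds because 1 of the 2 arrays was not well above background, and dotted lines mark 2-fold. CA39 points lie right of the upper line for 8 genes, with Postn farthest at a bound of 8.31, and left of the lower line for Smoc2 and Enpp2, whereas AR7 and CA77 points of Enpp2 lie right.

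Genes of phosphate and pyrophosphate handling mostly stayed near the untreated value. Of 12 compared, 1 was over 2-fold higher with AR7 (beside 1.8% of all gene names), 1 lower with CA39 (beside 1.16%) and 1 higher with CA77 (beside 1.93%), with medians of 0.04, 0.14 and -0.04. All of these calls were Enpp2 (autotaxin), which makes lysophosphatidic acid and belongs to the same enzyme family as Enpp1. Enpp2 read 13.88 in untreated cells, 15.15 under AR7, 10.77 under CA39 and 15.01 under CA77. Untreated again lay between CA39 and the other compounds, here with CA39 as the lowest.

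The phosphate transporters Slc20a1 and Slc20a2 differed from untreated by 0.11 and 0.03 under AR7, 0.14 and 0.06 under CA39, and 0.22 and -0.20 under CA77. Phospho1, a phosphatase of matrix vesicles, read 6.91 on untreated and 6.95 on AR7. Abcc6, Nt5e and Galnt3 were at background on all arrays.

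The partners of osteoprotegerin were measured in a list of 11 osteoclast signals and receptors. Tnfsf11 (RANKL) and Tnfsf10 (TRAIL), both ligands of osteoprotegerin, were at background on all arrays. Tnfrsf11a (RANK) read 9.16 in untreated cells, 9.39 under AR7, 9.14 under CA39 and 9.10 under CA77. Csf1, the growth factor of osteoclast precursors, differed by 0.09, -0.38 and -0.02 with AR7, CA39 and CA77.

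Il6, a cytokine that can raise osteoclast formation, was the 1 gene of 9 in this list past 2-fold with CA39 (beside 3.69% of all gene names higher). It read 6.66 on untreated, 8.88 on CA39 and 6.56 on CA77, and was not well above background on AR7. The difference with CA39 was 2.22 (error 0.24). With AR7 and CA77, 0 of 9 passed 2-fold, near the shares of 2.19% and 2.47%, and the median difference was 0.09 under AR7, 0.18 under CA39 and -0.06 under CA77.

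A list of vitamin K-dependent carboxylation, the modification of matrix Gla protein and osteocalcin, held enzymes of the pathway, other Gla proteins (Gas6, Prrg1, Prrg2) and Calu, an inhibitor of the carboxylase. Of 8 compared, 0 passed 2-fold against untreated with each compound, near the shares over all gene names (2.19%, 4.85% and 2.47%). Ggcx, the carboxylase, read 10.80 in untreated cells, 10.82 under AR7, 10.96 under CA39 and 10.79 under CA77. Vkorc1, which recycles vitamin K, differed from untreated by -0.12, -0.05 and 0.03. The medians of the list were 0.03, 0.13 and -0.01.

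Receptors for osteopontin and bone sialoprotein included 2 genes of 7 that were over 2-fold higher with CA39, beside 3.69% of all gene names. Itgb5, the integrin beta chain that pairs with alpha v, read 13.98 in untreated cells, 13.59 under AR7, 15.69 under CA39 and 13.56 under CA77, a CA39 difference of 1.71 (error 0.20). Itga8, an alpha chain, read 6.98 on untreated and 8.60 on CA39 (1.63, error 0.23) and was not well above background on AR7 and CA77. Itgav differed by 0.11 and Cd44, a further osteopontin receptor, by -0.34 with CA39. With AR7 and CA77, 0 of 7 passed 2-fold, beside 2.19% and 2.47%.

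Markers of cell types were read beside these results. Of 10 fibroblast markers, 9 were detected on the untreated, AR7 and CA77 arrays and 10 on CA39. With CA39 4 of 10 were over 2-fold higher, beside 3.69% of all gene names: Fn1 (1.47), Pdgfra (1.19), Col1a1 (1.06) and Pdgfrb, which was detected on CA39 alone. Pdgfrb was thus compared through the CA39 array alone, and the share over all gene names counts such genes too. The other 6 differed by 0.58 for Thy1, 0.38 for P4hb, 0.29 for Col1a2, 0.20 for Vim, 0.12 for Ddr2 and -0.22 for S100a4, and the list median was 0.48. With AR7, 0 of 9 were over 2-fold higher and 1 lower (Col1a1, beside 0.388% of all gene names), and with CA77 0 of 9 passed 2-fold (beside 2.47%), with medians of -0.19 and -0.14. Their summed log2 level, with genes not well above background entered at the detection floor of the array, was 145.9 in untreated cells, 144.5 under AR7, 153.8 under CA39 and 144.3 under CA77.

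Of 8 markers of mature osteoblasts and osteocytes, Bglap had no probe and Ibsp, Sost and Pth1r were at background on all arrays. The number detected was 3 in untreated cells, 4 under AR7, 3 under CA39 and 3 under CA77, and Phex was the 1 marker of 3 compared past 2-fold with CA39 (beside 3.69% of all gene names higher). Sp7 and Mepe, the other markers compared there, differed by -0.22 and -0.26, and the list median was -0.22. Dmp1 was detected on AR7 alone. The summed log2 level of the 7 with a probe was 47.9, 51.2, 52.6 and 48.4, in which the detection floors, higher on AR7 (6.82) and CA39 (6.87) than on untreated (5.88) and CA77 (6.26), take part.

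Among 5 epithelial markers, Krt8 read 7.67 in untreated cells, 7.63 under AR7, 10.04 under CA39 and 7.30 under CA77. Epcam was detected on CA39 alone and so was compared through that array alone. Its difference from untreated was a bound of 1.65 (3.14-fold) with a large error of 1.32. Krt18 and Krt5 differed from untreated by 0.98 and 0.60 with CA39, and Cdh1 was at background on all arrays. The summed log2 level was 34.0 in untreated cells, 36.2 under AR7, 40.6 under CA39 and 34.0 under CA77. The detection floors given above take part in it for the markers at background. Thus 2 of 4 epithelial markers compared, Krt8 and Epcam, were over 2-fold higher on the array where Mgp, Tnfrsf11b and Spp1 were (beside 3.69% of all gene names), and their part in those differences was not tested.

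Of the other marker lists, chondrocyte (5 compared) and endothelial (4 compared) markers had 0 past 2-fold with any compound, near the shares over all gene names. Of 4 adipocyte markers compared, 1 was over 2-fold lower with CA39, Fabp4 at -1.59 (beside 1.16% of all gene names), and the list median was -0.05. Of 6 smooth muscle markers, 1 was over 2-fold lower with CA77, Acta2 at -1.03 (beside 0.548%), with a median of -0.05. Of 6 macrophage and osteoclast markers, 1 was over 2-fold higher with AR7 (beside 1.8%) and 1 lower with CA39 (beside 1.16%), both Mmp9, a protease, at 1.35 and a bound of -1.28. The list medians were 0.05 and 0.00, and Acp5 and Csf1r differed by 0.21 and 0.18 with CA39.

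Finally, genes with differences most like those of Mgp and Tnfrsf11b were sought by the Euclidean distance over the 3 log2 differences from untreated, among 13018 and 13019 other symbols detected on all arrays. The same 5 symbols were nearest to both: Timp3, Defb41, Emb, Tmsb4x and Ppic. For Mgp the distances were 1.31 for Timp3, 1.36 for Defb41, 1.497 for Emb, 1.76 for Tmsb4x and 1.82 for Ppic. For Tnfrsf11b they were 0.34 for Defb41, 0.66 for Timp3, 0.69 for Emb, 0.72 for Tmsb4x and 0.83 for Ppic. The AR7 difference of Tnfrsf11b that enters its distances is a bound, so these distances and their order are approximate.

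Timp3 encodes a matrix-bound inhibitor of metalloproteinases and read 8.87 in untreated cells, 8.22 under AR7, 13.22 under CA39 and 8.37 under CA77. Its differences were -0.65 under AR7, 4.35 under CA39 and -0.50 under CA77, the same signs as for Mgp. Defb41, a beta-defensin, differed from untreated by -0.23, 4.73 and 0.10. Likeness here rests on 4 arrays and mainly on the CA39 array.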

How the data were processed

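The 4 arrays were scanned by the authors, and Feature Extraction 10.7.3.1 gave each of 62976 spots a deposited linear intensity, its local background and quality marks. The methods of the study name robust multiarray average values, whereas the deposited series table equals the background-subtracted intensity at all 62976 spots and is unscaled. It served as an alternative. The members and gene lists were chosen with earlier results of these data known.

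Median spot and background intensities went through normal-exponential background correction in limma 3.58.1 (R 4.3.3) over all spots, without offset. The 59305 gene spots were quantile normalized and put on the log2 scale. Outlier spots were left out (142 on untreated, 328 on AR7, 328 on CA39, 321 on CA77), and 0 were saturated. Spots of a probe were averaged, and detection required more than 50% of the spots of a probe to pass the background test of the scanner software. Accessions were matched without version to RefSeq of GRCm38.p6, which named 27656 of 55681 probes. The array was designed on an earlier build, so no probe coordinates are given. A gene was represented by its brightest probe over the 4 arrays. Undetected values were replaced by the 1st percentile of detected signal on that array, unless they were higher. A fold against such a value is treated as a bound, subject to the error of the spot. A call needed 2-fold and detection on 1 of the 2 arrays, and the difference was taken as 0 where the higher array lacked detection.

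The error of a difference combines the spot errors of the scanner software. Genes named are all members, list genes past 2-fold against untreated, fibroblast and osteoblast markers, and the 5 symbols nearest in pattern to Mgp and Tnfrsf11b. Other genes were named after their values were seen. The steps were tested on simulated data. Python 3.11.15 with pandas 2.3.3 was used for comparisons. Alternatives covered scaling, starting column, background offset, the series table, floor, detection filter, threshold, probe choice and outlier spots.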

Additional observations from a re-analysis of the deposited data

Results flagged for a closer look

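The Enpp1 spot on the CA77 array had a scanner signal of 2404, against 19.1 on untreated, 15.3 on AR7 and 14.7 on CA39. It stands out because it lies in data not used in the comparisons: the scanner software marked it as an outlier, and Enpp1 has no other probe. Whether it reflects the transcript was not tested.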

How the results depend on the processing

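Over 10 alternatives no value changed to a call in the other direction. Of 264 member differences 227 stayed within the 0.16 tolerance of their main value and 37 moved by more. With CA39, the difference from untreated ranged from 5.42 to 5.84 for Mgp, 4.47 to 5.29 for Tnfrsf11b and 1.22 to 1.36 for Spp1. The mean over probes, which takes values whether detected or not, gave Runx2 a CA77 difference from untreated of 0.12 (main -0.31), a CA39 difference from CA77 of 0.16 (main 0.83) and a CA77 difference from AR7 of 0.50 (main 0.11).

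Members past 2-fold with AR7 went from 0 to 1 at a 1.5-fold threshold. With CA77 they went from 0 to 1 under 75th percentile scaling (Mgp, -1.06), the series table (Mgp, -1.02), a 1.5-fold threshold and outlier spots kept (Enpp1), which also gave 1 for CA77 against AR7. CA39 against CA77 gave 5 at 1.5-fold (main 3). With genes detected on all 4 arrays, which leaves out Tnfrsf11b, the member median was 0.94 for CA39 against untreated (main 1.35), 1.36 against AR7 (main 1.78) and 1.28 against CA77 (main 1.72). Outlier spots kept gave 1.28 in the last.

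List genes past 2-fold with AR7 (main 2) were 4 under 75th percentile scaling, the lowest-signal floor and no floor, and 6 at 1.5-fold. With CA77 (main 2) they were 4 under 75th percentile scaling and the series table, 5 from the processed signal, 1 with an offset of 50 and with detection on all 4 arrays, and 10 at 1.5-fold.

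All genes past 2-fold with AR7 (main 609) were 919 from the processed signal, 969 from the series table, 167 with detection on all arrays and 1313 at 1.5-fold. With CA39 (main 1354) they were 693 with detection on all arrays and 3028 at 1.5-fold. With CA77 (main 696) they were 1254 under 75th percentile scaling, 1399 from the processed signal, 1449 from the series table, 174 with detection on all arrays and 1820 at 1.5-fold. The share of higher calls moved by over 10 points with CA77 (main 77.9%) to 65.0% under 75th percentile scaling, 58.0% with detection on all arrays and 57.8% at 1.5-fold. With AR7 (main 82.3%) it was 65.2% with the lowest-signal floor and with no floor, 71.9% with detection on all arrays and 69.2% at 1.5-fold, and with CA39 (main 76.1%) 65.3% with no floor, 65.7% with detection on all arrays and 63.7% at 1.5-fold. For CA39 against CA77 (main 64.0%) it was 52.8% with no floor, and for CA77 against AR7 (main 45.3%) 58.6% with the lowest-signal floor and 57.3% with no floor. CA39 against AR7 (main 1420) gave 875 and 3285, and CA39 against CA77 (main 1584) 889 and 3357, with detection on all arrays and at 1.5-fold. CA77 against AR7 (main 651) gave 1065 under 75th percentile scaling, 1079 from the processed signal, 1160 from the series table, 1093 with the lowest-signal floor, 1118 with no floor, 147 with detection on all arrays and 1200 at 1.5-fold. The causes were not tested. No paired analysis was possible because each group has 1 array.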

Other observations

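The genes beside the members on the chromosome, in the gene order of the RefSeq table, were read as well. This check was chosen after values had been seen. Erp27 and Arhgdib, which follow Mgp, differed from untreated by -0.23 and -0.04 with CA39. Around Tnfrsf11b, Ext1 differed by 0.50 with CA39, Colec10 was detected on CA39 alone (a bound of 1.31), and Samd12 and Mal2 were at background on all arrays. Mepe and Pkd2, on the sides of Spp1, differed by -0.26 and 0.11 with CA39. Supt3, next to Runx2, differed by 0.05, and Otulin, next to Ank, by -0.06.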
